A study of Mus musculus with 16 samples.

Results

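Fibroblast growth factor (FGF) signalling was followed through the histone marks at 10 of its genes, which are 10 of the 21887 protein-coding genes examined. They are a list of genes by name, with roles in the pathway: 6 ligands (Fgf3, Fgf4, Fgf8, Fgf10, Fgf15 and Fgf17), the receptor Fgfr1, and 3 feedback genes (Spry2, Spry4 and Dusp6). The cells were CJ9, a mouse embryonic stem cell line, directed for 5 days to endoderm or to mesoderm and crosslinked for 8 min in formaldehyde. ChIP-seq was then run for 3 histone marks, H3K4me3, H3K27ac and H3K27me3. The 4 groups were arid4b-delta endoderm, WT endoderm, arid4b-delta mesoderm and WT mesoderm, where arid4b-delta is the label of the cells deleted for Arid4b and WT cells are wild type. All groups share the CJ9 background, and the labels do not say how many clones were used. Each mark was profiled in 1 library per group, so there are 12 peak lists, no replicates, no tests and no p-values. The peak lists give histone marks only, so the deletion of Arid4b itself cannot be checked from them.

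FGF ligands are secreted proteins that bind FGF receptors, receptor tyrosine kinases that signal through the Ras-MAP kinase cascade. The cascade switches on its own inhibitors: sprouty proteins dampen it upstream, and Dusp6 is a phosphatase that removes phosphate from ERK. In mouse embryonic stem cells Fgf4 is the main autocrine ligand and drives exit from self-renewal, and Fgf8 is needed in the gastrulating embryo for cells to leave the primitive streak. The Arid4b protein belongs to Sin3-HDAC, a corepressor complex with histone deacetylase activity. H3K4me3 is found at active and poised promoters, H3K27ac at active promoters and enhancers, and H3K27me3 marks Polycomb-repressed chromatin. Promoters with both H3K4me3 and H3K27me3 are known as bivalent in stem cells; in a population of cells the marks can also lie on different cells or alleles, which peak lists cannot tell apart.

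A promoter was called marked when a peak lay within 1000 bp of either end of the gene, because the strand was not given for 5 of the 10 genes. The RefSeq table held a promoter sequence for 5 genes (Fgf3, Fgf4, Fgf10, Spry2 and Dusp6). The 4 shown here are those the results turn on: Fgf4, which had an acetylated stretch upstream, Fgf10, whose marks differed between genotypes, and Spry2 and Dusp6, which had the broadest H3K4me3 of the 10 genes. Each is the 250 bases before the gene start in RefSeq build GRCm38.p6, written 5′ to 3′ on the gene's own strand, with CpG dinucleotides in capitals. The windows are chr7:144861136-144861385 (plus strand) for Fgf4, chr13:118714449-118714698 (plus strand) for Fgf10, chr14:105896820-105897069 (minus strand) for Spry2 and chr10:99262981-99263230 (plus strand) for Dusp6.
Fgf4: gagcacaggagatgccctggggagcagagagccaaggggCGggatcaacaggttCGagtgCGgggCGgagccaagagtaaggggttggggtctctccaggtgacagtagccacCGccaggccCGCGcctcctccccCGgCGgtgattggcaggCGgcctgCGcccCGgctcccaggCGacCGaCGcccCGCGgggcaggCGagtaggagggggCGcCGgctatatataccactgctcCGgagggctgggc
Fgf10: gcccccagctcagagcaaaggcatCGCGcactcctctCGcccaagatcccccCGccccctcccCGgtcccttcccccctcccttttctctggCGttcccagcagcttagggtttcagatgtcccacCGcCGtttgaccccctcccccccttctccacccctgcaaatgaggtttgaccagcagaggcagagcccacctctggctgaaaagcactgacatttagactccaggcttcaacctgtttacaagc
Spry2: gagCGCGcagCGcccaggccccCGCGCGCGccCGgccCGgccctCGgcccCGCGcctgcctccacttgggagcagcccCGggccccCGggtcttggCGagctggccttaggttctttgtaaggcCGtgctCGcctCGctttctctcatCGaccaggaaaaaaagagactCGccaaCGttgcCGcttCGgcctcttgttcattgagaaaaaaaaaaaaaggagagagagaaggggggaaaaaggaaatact
Dusp6: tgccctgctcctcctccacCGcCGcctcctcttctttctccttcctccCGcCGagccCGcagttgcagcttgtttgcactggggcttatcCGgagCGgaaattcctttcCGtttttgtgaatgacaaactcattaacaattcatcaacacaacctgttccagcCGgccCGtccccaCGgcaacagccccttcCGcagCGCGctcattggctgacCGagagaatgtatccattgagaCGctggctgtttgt
The Fgf4, Fgf10, Spry2 and Dusp6 windows held 21, 8, 23 and 16 CpGs, and Fgf3 held 4, against a median of 10 over 21263 windows. GC content was 71.2% for Fgf4, 61.2% for Fgf10, 62.4% for Spry2 and 56.4% for Dusp6. A search of both strands found no ETS (CCGGAAG), TCF/LEF (CTTTGAT), T-box (AGGTGTG) or SRF motif in the 5 windows, and of all windows 8.98%, 2.82%, 4.69% and 1.39% held them in that order.

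With the full lists, the 4 receptor and feedback genes carried H3K4me3 and H3K27ac and no promoter H3K27me3 in all 4 groups. The ligands then held every difference between groups in promoter state. Under some alternative settings, receptor and feedback genes differed between genotypes too. Spry4 and Fgfr1 did so with the highest-fold 50% of each list, and Spry2 did so for H3K27me3 with a 2500 bp window. The state of Fgfr1, Spry2, Spry4 and Dusp6 is a common one, shared by 3901 of the 21887 genes. Fgf3, Fgf4 and Fgf8 had both H3K4me3 and H3K27me3 in all 4 groups. In endoderm both marks were found at 4 genes in arid4b-delta cells (Fgf3, Fgf4, Fgf8, Fgf10) and at 4 in WT cells (Fgf3, Fgf4, Fgf8, Fgf15). In mesoderm they were found at all 6 ligands in arid4b-delta cells and at 4 in WT cells (Fgf3, Fgf4, Fgf8, Fgf15). Over all genes, both marks were found at 14.2% in arid4b-delta endoderm, 10.1% in WT endoderm, 14.2% in arid4b-delta mesoderm and 7.64% in WT mesoderm. The lists differed in length between genotypes, and the count of both-mark genes in arid4b-delta endoderm depends on that: with the lists of a mark cut to 1 length by fold enrichment it was 0 of 10 and not 4. In arid4b-delta mesoderm Fgf17 counts through its last base, and with 1 promoter end per gene its H3K27me3 call was lost.

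**Figure D1:**
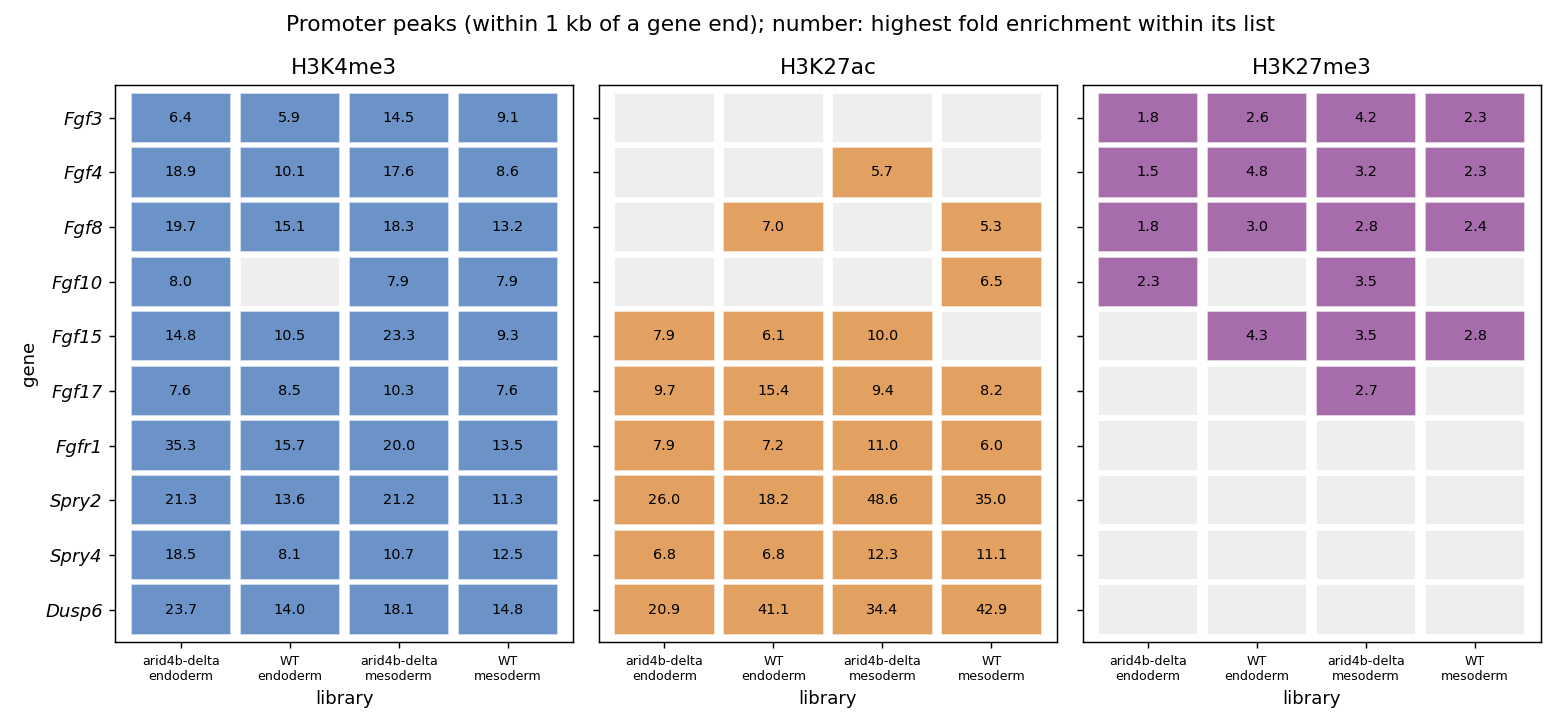
Promoter state of the 10 FGF genes (rows) in the 12 peak lists (columns, by mark, lineage and genotype); a coloured cell means at least 1 peak within 1000 bp of a gene end, and its number is the highest fold enrichment, which places a peak only within its own list. Fgfr1, Spry2, Spry4 and Dusp6 are coloured for H3K4me3 and H3K27ac and grey for H3K27me3 in all 4 groups, while Fgf4, Fgf8, Fgf10, Fgf15 and Fgf17 differ between groups.

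H3K4me3 lay at 10 of 10 promoters in arid4b-delta endoderm and 9 of 10 in WT endoderm, and at 10 of 10 in arid4b-delta and in WT mesoderm. Of all genes, 58.6% carried it in arid4b-delta endoderm, 53.3% in WT endoderm, 59.7% in arid4b-delta mesoderm and 55.9% in WT mesoderm. In endoderm 1 gene, Fgf10, had it in arid4b-delta cells only and 0 in WT cells only, where 5.37% and 0.101% of all genes did. In mesoderm the counts were 0 and 0, and the background shares were 3.92% in arid4b-delta cells only and 0.119% in WT cells only.

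H3K27ac was found at 6 promoters in arid4b-delta endoderm and 7 in WT endoderm, and at 7 in arid4b-delta mesoderm and 7 in WT mesoderm. Of all genes, 26.4%, 26.6%, 31.5% and 29.6% carried it in the same order of groups. The H3K27ac lists held 35884 peaks in arid4b-delta endoderm and 14216 in WT endoderm, and 22747 in arid4b-delta mesoderm and 12496 in WT mesoderm. In endoderm 0 genes had it in arid4b-delta cells only and 1, Fgf8, in WT cells only (background 4.49% and 4.7%). In mesoderm 2 genes, Fgf4 and Fgf15, had it in arid4b-delta cells only and 2, Fgf8 and Fgf10, in WT cells only (background 5.62% and 3.71%). The totals in mesoderm are therefore equal with the full lists but come from different ligands. The Fgf15 call was kept under 7 of 7 alternative settings, the Fgf4 call under 3, the Fgf8 call under 2 and the Fgf10 call under 4. The Fgf4, Fgf8 and Fgf10 calls each rest on 1 peak, of 146, 151 and 153 bp.

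H3K27me3 was found at 4 promoters in arid4b-delta endoderm and 4 in WT endoderm, and at 6 in arid4b-delta mesoderm and 4 in WT mesoderm. Of all genes, 17.2%, 14.4%, 16.3% and 9.34% carried it in the same order of groups, so the share over all genes was also higher in arid4b-delta mesoderm than in WT mesoderm. The H3K27me3 lists held 16660 peaks in arid4b-delta endoderm and 10326 in WT endoderm, and 9863 in arid4b-delta mesoderm and 6150 in WT mesoderm. They reach down to folds of 1.00 and to −log10 q values of 0.307 to 0.358, so a call can rest on a weak peak. In arid4b-delta endoderm the −log10 q was 1.03 at Fgf3, 0.590 at the start of Fgf4, 1.17 at Fgf8 and 2.31 at Fgf10. In endoderm Fgf10 had it in arid4b-delta cells only and Fgf15 in WT cells only (background 4.89% and 2.05%). In mesoderm 2 genes, Fgf10 and Fgf17, had it in arid4b-delta cells only and 0 in WT cells only (background 7.68% and 0.726%). In endoderm the arid4b-delta peaks at Fgf3, Fgf4 and Fgf8 were lost with lists matched in length and with the highest-fold 50% of each list, which left these 3 genes and Fgf15 marked in WT cells only.

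Between lineages within a genotype, few promoters differed with the full lists. For H3K4me3, 0 genes were marked in endoderm only and 0 in mesoderm only in arid4b-delta cells (background 0.338% and 1.48%), against 0 and 1, Fgf10, in WT cells (0.548% and 3.15%). For H3K27ac the counts were 0 in endoderm only and 1 in mesoderm only, Fgf4, in arid4b-delta cells (2.36% and 7.43%), against 1, Fgf15, and 1, Fgf10, in WT cells (3.39% and 6.36%). For H3K27me3 they were 0 and 2, Fgf15 and Fgf17, in arid4b-delta cells (3.31% and 2.37%), against 0 and 0 in WT cells (6.08% and 1.01%).

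Markers of each lineage give the setting for the ligands. Of 8 endoderm markers, 0 had promoter H3K27ac in any of the 4 groups, and 6 or 7 had H3K27me3, so no called promoter acetylation marked the endoderm label at these genes. Of 8 mesoderm markers, 0 had promoter H3K27ac in arid4b-delta mesoderm and 4 had it in WT mesoderm (T, Tbx6, Pdgfra and Foxc1), with 0 in arid4b-delta endoderm and in WT endoderm. Of 6 markers of undifferentiated stem cells, 4 had it in arid4b-delta mesoderm (Pou5f1, Nanog, Sox2 and Utf1) and 2 in WT mesoderm (Pou5f1 and Sox2), with 3 in arid4b-delta endoderm and 4 in WT endoderm. Of 4 neuroectoderm markers, 1 had it in arid4b-delta mesoderm (Nes) and 0 in the other groups. The part of these cell states in the differences at the FGF genes was not tested.

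The neighbourhood of Fgf4, the autocrine ligand of stem cells, was acetylated in 3 groups and not in WT mesoderm. Fgf4 lies on chromosome 7 (144861386 to 144865245), 18038 bp after the end of Fgf3 and before Fgf15, so the 3 ligands are neighbours, and the 20 kb windows of Fgf3 and Fgf4 hold some of the same peaks. In arid4b-delta mesoderm an H3K27ac peak of 1168 bp ran from position -4690 to -3523 bp relative to the first base of Fgf4, with a fold enrichment of 25.8, above 97.9% of the peaks in its list. Fold enrichments are the authors' own value per peak and place a peak only within its own list. In arid4b-delta endoderm 3 peaks lay between -4806 and -3098 bp, with folds of 11.3, 14.1 and 4.93. In WT endoderm 3 peaks lay between -4851 and -3553 bp, with folds of 5.95, 9.13 and 10.9. WT mesoderm had no peak there, and its nearest H3K27ac peak to an end of Fgf4 was 74196 bp away. The same stretch was therefore acetylated in arid4b-delta endoderm, WT endoderm and arid4b-delta mesoderm.

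Within 20 kb of Fgf4, H3K27ac covered 1462 bp in arid4b-delta mesoderm and 0 bp in WT mesoderm, and 1312 bp in arid4b-delta endoderm and 1037 bp in WT endoderm. Of all genes, 142 (0.649%) had at least 1462 bp in arid4b-delta mesoderm and none in WT mesoderm. The arid4b-delta mesoderm list also held a peak of 146 bp inside Fgf4, 406 to 551 bp after its first base, with a fold of 5.73. That peak overlapped an H3K27me3 peak of the same group by its whole 146 bp, and the call was lost under 4 of 7 alternatives: lists matched in length, the highest-fold 50%, peaks of at least 500 bp and at least 500 bp covered. The call of the stretch before the gene was kept with lists matched in length and with the highest-fold 50%. Its promoter carried H3K4me3 in all groups, with folds of 18.9 in arid4b-delta endoderm, 10.1 in WT endoderm, 17.6 in arid4b-delta mesoderm and 8.63 in WT mesoderm.

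H3K27me3 at the start of Fgf4 was a peak of 1156 bp in arid4b-delta endoderm, 1495 bp in WT endoderm, 891 bp in arid4b-delta mesoderm and 1192 bp in WT mesoderm. The arid4b-delta endoderm peak was weak, with a fold of 1.45 and a −log10 q of 0.590, while the WT endoderm peak had a fold of 4.77 and a −log10 q of 8.44. The acetylated stretch before the gene and the H3K27me3 at its start thus did not lie on the same bases. In arid4b-delta endoderm, WT endoderm and arid4b-delta mesoderm the stretch ended at -3098 bp or further out. The H3K27me3 peak of these groups began between -61 and 101 bp relative to the first base. WT mesoderm had no such stretch.

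Fgf3, the neighbour of Fgf4 and a ligand of inner ear and tail development, had no promoter H3K27ac in any group. H3K27me3 covered its start in every group, in a peak of 6641 bp in arid4b-delta endoderm, 5329 bp in WT endoderm, 5556 bp in arid4b-delta mesoderm and 2665 bp in WT mesoderm. The arid4b-delta endoderm peak had a fold of 1.76 and a −log10 q of 1.03 and is among those lost with lists matched in length. Its H3K4me3 was narrow in endoderm, covering 942 bp within 2500 bp of the start in arid4b-delta cells and 252 bp in WT cells. In mesoderm it covered 1598 bp in arid4b-delta cells and 1353 bp in WT cells. The state of Fgf3, both methylation marks everywhere and no acetylation, was shared by 1000 genes.

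Fgf15, the third gene of the cluster (144896532 to 144900953) and an endocrine ligand that acts from the gut on bile acid synthesis in adults, had the acetylation pattern of Fgf4 at its own promoter. In arid4b-delta mesoderm a peak of 651 bp lay just before its first base with a fold of 10.01, and peaks of 194 and 146 bp lay past its last base. WT mesoderm had none, the nearest being 38488 bp away. In arid4b-delta endoderm peaks of 194 and 522 bp lay before the first base with folds of 4.93 and 7.89, and a peak of 170 bp lay past the last. In WT endoderm peaks of 257, 161 and 186 bp lay at the first base with folds of 5.44, 6.15 and 5.73. Over the gene and 20 kb either side, H3K27ac covered 991 bp in arid4b-delta mesoderm and 0 bp in WT mesoderm, a difference reached by 276 genes (1.26%).

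H3K27me3 at Fgf15 was missing from 1 group, arid4b-delta endoderm. It covered 0 bp in arid4b-delta endoderm and 1330 bp in WT endoderm, and 666 bp in arid4b-delta mesoderm and 634 bp in WT mesoderm. Of all genes, 34 (0.155%) had none in arid4b-delta endoderm and at least 1330 bp in WT endoderm. In WT endoderm an H3K27ac and an H3K27me3 peak overlapped by 221 bp at this promoter. The mesoderm acetylation call and the endoderm H3K27me3 call at Fgf15 each held under all 7 alternatives tried for them.

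**Figure D2:**
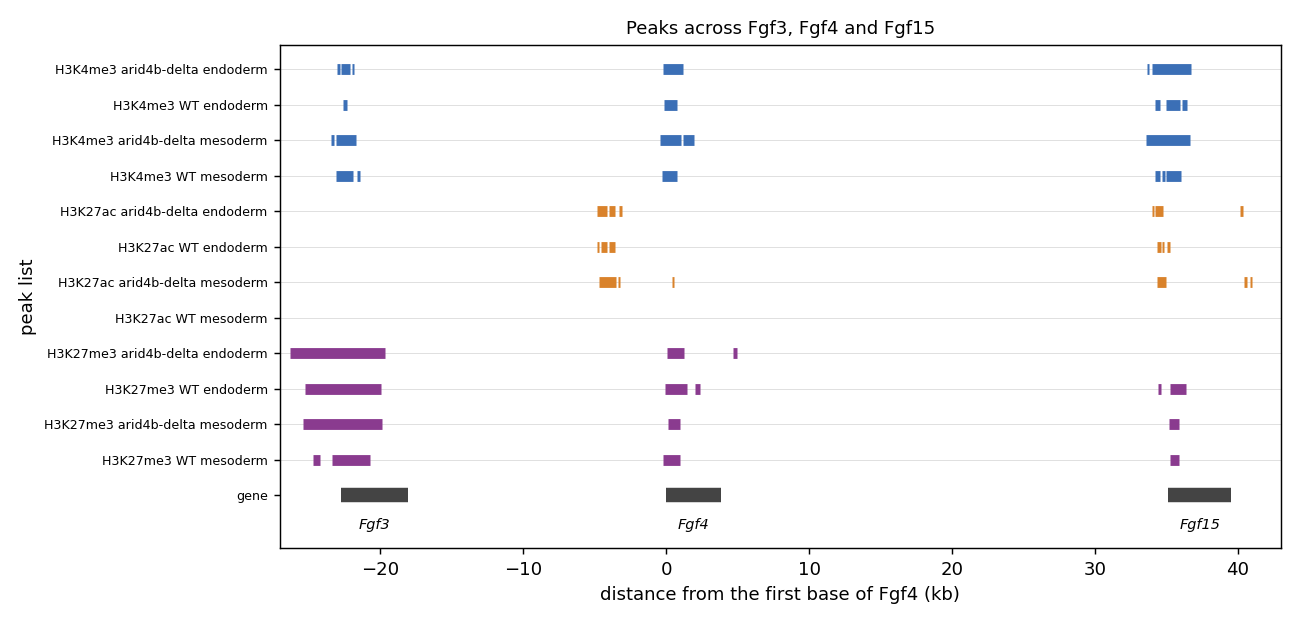
Peaks over the Fgf3, Fgf4 and Fgf15 cluster, with distance in kb from the first base of Fgf4 on the horizontal axis and 1 row per library; bars are peaks. H3K27ac bars stand before Fgf4, between -4851 and -3098 bp, and at Fgf15 in arid4b-delta endoderm, WT endoderm and arid4b-delta mesoderm, and none stands there in WT mesoderm.

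Fgf8, the ligand of the primitive streak, had H3K27ac around it in WT endoderm and not in arid4b-delta endoderm. It lies on chromosome 19 (45736491 to 45742941). Arid4b-delta endoderm had no H3K27ac peak over the gene and 20 kb either side, the nearest being 32499 bp away, whereas WT endoderm had 9 peaks covering 4493 bp. In mesoderm there was 1 peak of 190 bp in arid4b-delta cells, at the neighbouring gene Npm3, against 5 peaks covering 1055 bp in WT cells. Of all genes, 2 had none in arid4b-delta endoderm and at least 4493 bp in WT endoderm: Fgf8 and Npm3, over the same peaks.

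The WT endoderm peaks fell in 2 stretches. From -3712 to -586 bp of the first base there were 5 peaks with folds of 10.3, 8.73, 8.60, 4.77 and 7.04, and another of 153 bp lay inside the gene. Beyond the last base 3 peaks reached Npm3, the longest of 1622 bp with a fold of 7.32. WT mesoderm had peaks of 415 and 182 bp in the first of these stretches, with folds of 6.26 and 7.34. H3K4me3 lay at the other end of Fgf8, around its last base, in all 4 groups, so the acetylation counted as promoter H3K27ac is at the other end, where H3K4me3 was a single peak of 168 bp in arid4b-delta mesoderm. With 1 promoter end per gene, taken from H3K4me3 where the strand is not given, neither Fgf8 promoter call was kept.

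H3K27me3 over Fgf8 was called in longer peaks in arid4b-delta cells. It was 1 peak of 8260 bp in arid4b-delta endoderm, with a fold of 1.81 and a −log10 q of 1.17. WT endoderm had peaks of 325 and 1321 bp, with folds of 3.70 and 2.98 and −log10 q values of 5.33 and 3.46. With lists matched in length, or the highest-fold 50%, the arid4b-delta endoderm peak was lost and the promoter call was in WT endoderm only. In mesoderm it was a peak of 9218 bp in arid4b-delta cells, with a fold of 2.81, and a further 242 bp, against 1 peak of 2253 bp in WT cells, with a fold of 2.44. The longer peaks extended over the body of the gene towards its first base and also past its last base. The arid4b-delta endoderm peak began 1051 bp after the first base, and the arid4b-delta mesoderm peak began at -842 bp. Acetylation in WT cells lay on both sides of the gene.

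**Figure D3:**
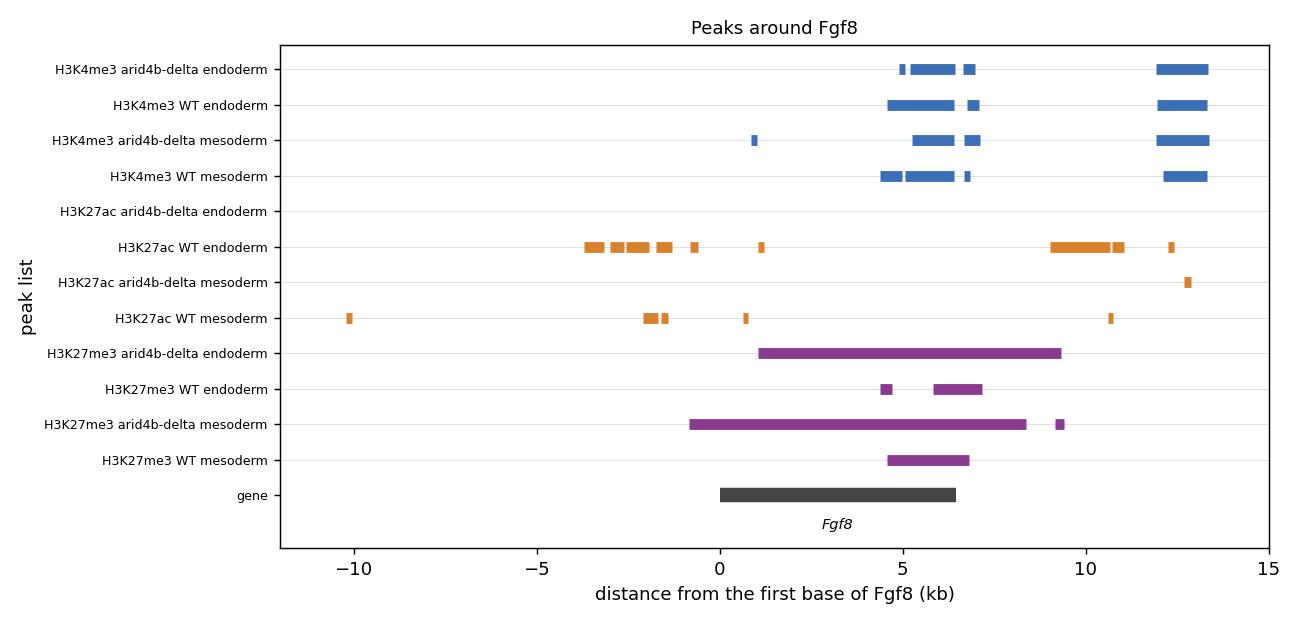
Peaks over Fgf8, with distance in kb from its first base on the horizontal axis and 1 row per library; bars are peaks. No H3K27ac bar stands there in arid4b-delta endoderm and 1 in arid4b-delta mesoderm, while bars flank the gene in WT endoderm and WT mesoderm, and the H3K27me3 bars are longer in both arid4b-delta groups.

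Fgf10, a mesenchymal ligand needed for limb and lung budding, had a different promoter state in the genotypes in both lineages. It lies on chromosome 13 (118714699 to 118792573), 327447 bp from the nearest end of another protein-coding gene. Genes of other kinds were not examined, so the peaks cannot be assigned to Fgf10 on that ground alone. In endoderm it had H3K4me3 (1 peak of 262 bp, fold 8.02) and H3K27me3 (3420 bp, fold 2.29) in arid4b-delta cells, and no peak of any mark in WT cells. In mesoderm H3K4me3 covered 649 bp near the start in arid4b-delta cells and 1774 bp in WT cells. H3K27me3 there was a peak of 2573 bp in arid4b-delta cells, with a fold of 3.48, and was absent in WT cells. H3K27ac was absent in arid4b-delta mesoderm and was a single peak of 153 bp with a fold of 6.54 in WT mesoderm.

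All 250 bases of the Fgf10 window printed above were under H3K27me3 in arid4b-delta endoderm and in arid4b-delta mesoderm, and 0 in WT endoderm and in WT mesoderm. With the full lists no other gene of the 21887 had the pattern of Fgf10 across the 12 lists. How many other genes also had a pattern of their own was not counted. Over the gene and 20 kb either side, 32 genes (0.146%) had at least 3420 bp of H3K27me3 in arid4b-delta endoderm and none in WT. In mesoderm 326 genes (1.49%) had at least 2573 bp in arid4b-delta cells and none in WT cells. The H3K27me3 calls at Fgf10 in both lineages held under all 7 alternatives. Its H3K4me3 call in endoderm and its acetylation call in mesoderm were lost with the highest-fold 50% of each list. They were also lost with peaks of at least 500 bp and with at least 500 bp covered.

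Fgf17, a close relative of Fgf8, differed in H3K27me3 around the gene. It lies on chromosome 14 (70636203 to 70642268). Over the gene and 20 kb either side H3K27me3 covered 2655 bp in arid4b-delta endoderm and 0 bp in WT endoderm. In mesoderm it covered 3250 bp in arid4b-delta cells and 0 bp in WT cells. Differences of at least these sizes were reached by 60 genes (0.274%) in endoderm and 200 genes (0.914%) in mesoderm. Any coverage in arid4b-delta cells with none in WT cells was found at 3176 of 21887 genes in endoderm and 3136 in mesoderm. The endoderm peaks were weak, with folds of 1.51 to 1.63, and all lay on the Dmtn side. They ended at -6719 bp of the first base or further out. Peaks at its promoter window were found in arid4b-delta mesoderm alone, as 1754 bp at the last base with a fold of 2.72, and the call was lost with 1 promoter end per gene, which is the first base. H3K4me3 and H3K27ac lay at its first base in all 4 groups, but that base is 155 bp from an end of Dmtn, so these peaks cannot be assigned to Fgf17.

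**Figure D4:**
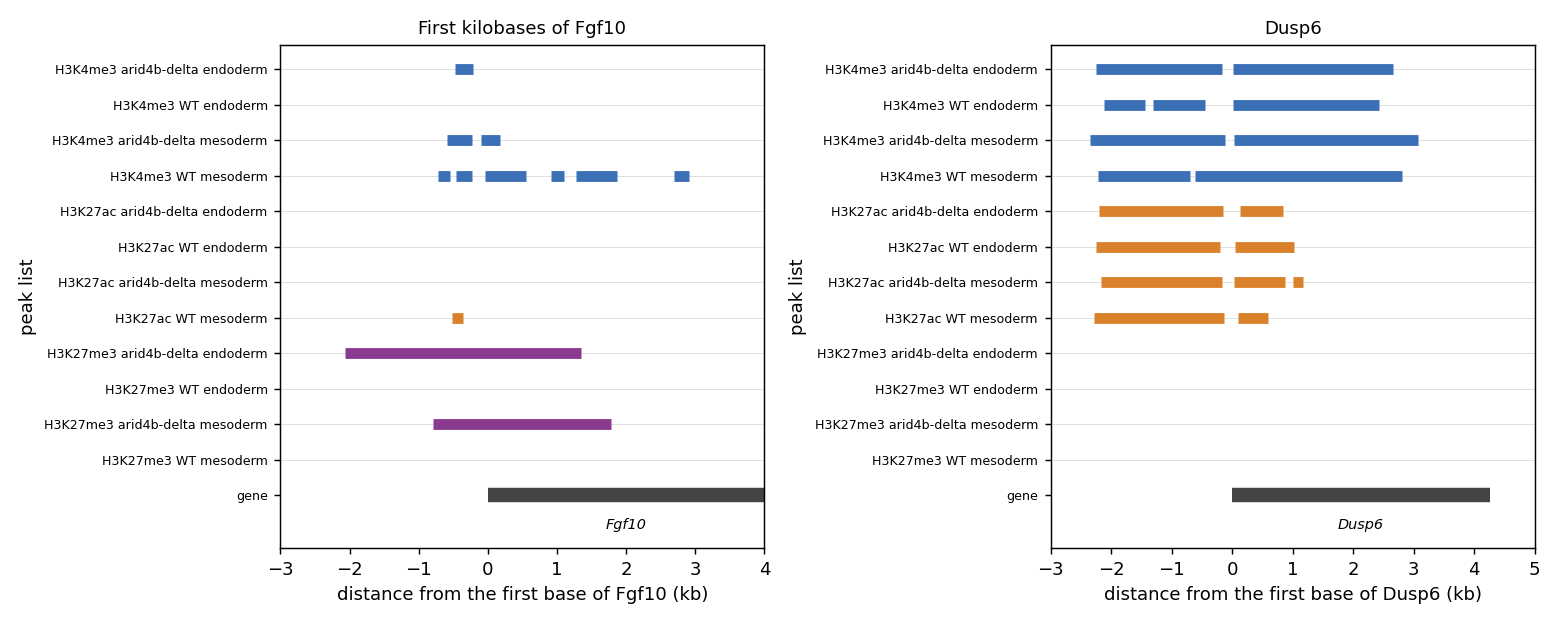
Peaks around the first base of Fgf10 and of Dusp6, with distance in kb from that base on the horizontal axis and 1 row per library; bars are peaks. At Fgf10 H3K27me3 bars are present in arid4b-delta endoderm and arid4b-delta mesoderm and absent from both WT groups, whereas Dusp6 has wide H3K4me3 and H3K27ac bars and no H3K27me3 in all 4 groups.

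Dusp6, the ERK phosphatase on chromosome 10 (99263231 to 99267489), carried among the widest H3K4me3 of all marked genes. Within 2500 bp of its start H3K4me3 covered 4575 bp in arid4b-delta endoderm and 3950 bp in WT endoderm, and 4692 bp in arid4b-delta mesoderm and 4645 bp in WT mesoderm. The medians over marked genes were 1449, 991, 1564.5 and 1224 bp in the same order of groups, and Dusp6 stood above at least 99.8% of marked genes in each. Its main H3K27ac peak was 2058 bp with a fold of 20.9 in arid4b-delta endoderm and 2042 bp with a fold of 41.1 in WT endoderm. In mesoderm it was 2006 bp with a fold of 34.4 in arid4b-delta cells and 2143 bp with a fold of 42.9 in WT cells. A gap of 274, 254, 190 and 233 bp in H3K27ac spanned the start of the gene in arid4b-delta endoderm, WT endoderm, arid4b-delta mesoderm and WT mesoderm. The gap overlaps the printed Dusp6 window, of which 106, 44, 91 and 115 of 250 bases were acetylated in those groups.

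Spry2, a sprouty inhibitor of receptor tyrosine kinase signalling on chromosome 14 (105891947 to 105896819), was of the same kind. H3K4me3 covered 4458 bp in arid4b-delta endoderm and 3405 bp in WT endoderm, and 4580 bp in arid4b-delta mesoderm and 4333 bp in WT mesoderm, above at least 99.8% of marked genes in each group. Its highest H3K27ac peak, upstream of the gene start, was 465 bp with a fold of 26.0 in arid4b-delta endoderm and 490 bp with a fold of 18.2 in WT endoderm. In mesoderm it was 518 bp with a fold of 48.6 in arid4b-delta cells and 475 bp with a fold of 35.0 in WT cells. The printed Spry2 window was acetylated over 250, 226, 250 and 250 of its 250 bases in arid4b-delta endoderm, WT endoderm, arid4b-delta mesoderm and WT mesoderm. WT endoderm also held an H3K27me3 peak of 321 bp inside Spry2, outside the promoter window.

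Spry4, another sprouty gene, on chromosome 18 (38586247 to 38601347), had H3K4me3 covering 2660 bp in arid4b-delta endoderm and 2041 bp in WT endoderm, and 2641 bp in arid4b-delta mesoderm and 2377 bp in WT mesoderm. Its H3K27ac was 371 bp with a fold of 6.80 in arid4b-delta endoderm and 489 bp with a fold of 6.85 in WT endoderm. In mesoderm the highest peak was 528 bp with a fold of 12.3 in arid4b-delta cells and 605 bp with a fold of 11.1 in WT cells. The last base of Spry4, where these marks lie, is 270 bp from an end of Arhgap26, so they cannot be assigned to Spry4 alone.

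Fgfr1, the receptor through which Fgf4 signals in stem cells, carried a block of H3K27ac inside the gene in all 4 groups. It lies on chromosome 8 (25518759 to 25575718), and the block stood between 24163 and 27358 bp after its first base. It was made of 4 peaks in arid4b-delta endoderm with folds of 7.50 to 16.3 and 4 peaks in WT endoderm with folds of 5.30 to 10.9. In mesoderm it was 2 peaks of 1074 and 1948 bp in arid4b-delta cells, with folds of 11.0 and 13.4, and 4 peaks in WT cells with folds of 5.50 to 7.49. Over the gene and 20 kb either side H3K27ac covered 2951 bp in arid4b-delta endoderm and 2556 bp in WT endoderm, and 3767 bp in arid4b-delta mesoderm and 3198 bp in WT mesoderm. A further stretch between -5230 and -3503 bp held H3K27ac peaks in WT endoderm and in both mesoderm groups. In WT endoderm it was 1 peak of 146 bp with a fold of 4.41, above only 6.48% of its list. In mesoderm it was 280 bp with a fold of 7.61 in arid4b-delta cells. WT mesoderm had peaks of 411 and 769 bp with folds of 6.06 and 9.08.

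Counting H3K27ac peaks outside the promoter windows and within 20 kb, 0 genes had them in arid4b-delta endoderm only and 2, Fgf8 and Fgf17, in WT endoderm only, where 19.6% and 4.37% of all genes did. In mesoderm 4 genes had them in arid4b-delta cells only (Fgf3, Fgf4, Fgf15 and Dusp6) and 1, Fgf17, in WT cells only, where the background was 13.9% and 3.93%. Fgf3 and Fgf4 share their peaks and count as 1 stretch. At Fgf17 in endoderm the acetylated stretch is 1 peak that reaches the promoter window in arid4b-delta cells and is split in WT cells, and in mesoderm the call rests on 1 WT peak of 540 bp at the end of Dmtn. The Dusp6 call rests on a peak of 161 bp inside the gene. The Fgf15 call rests on a peak of 146 bp past its last base, with a fold of 4.51, above only 4.55% of its list.

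**Figure D5:**
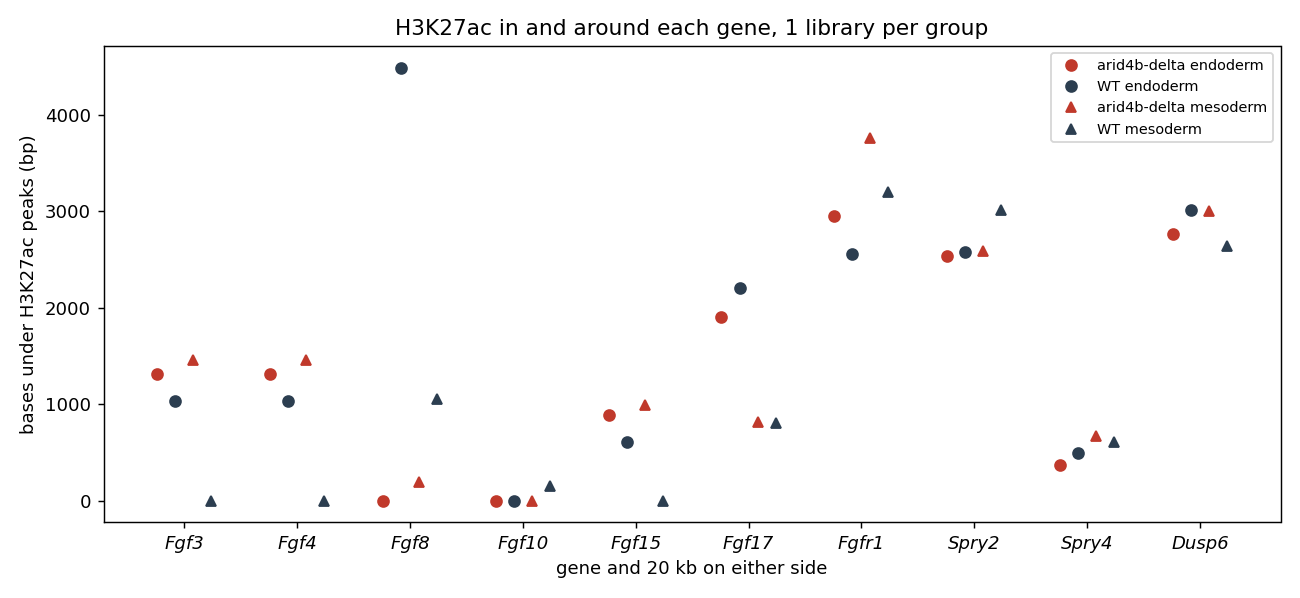
Bases under H3K27ac over each gene and 20 kb either side (bp, vertical axis) for the 10 genes, 1 point per library, with circles for endoderm, triangles for mesoderm, red for arid4b-delta and dark blue for WT. Fgf8 is at 0 bp in arid4b-delta endoderm and 4493 bp in WT endoderm, Fgf4 reaches 1462 bp in arid4b-delta mesoderm with 0 in WT mesoderm, and Fgfr1, Spry2 and Dusp6 lie between 2540 and 3767 bp in all groups.

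The other pathway genes were taken from a list of 55: 16 further Fgf genes, 6 receptors and co-receptors, 16 adaptors and kinases, and 17 feedback genes and targets. Promoter H3K27ac was found at 15 of 16 adaptors and kinases in arid4b-delta endoderm and 12 in WT endoderm, and at 14 in arid4b-delta mesoderm and 15 in WT mesoderm. None of the 6 receptors and co-receptors had it in any group. In endoderm 5 of 55 had it in arid4b-delta cells only and 3 in WT cells only, where 4.49% and 4.7% of all genes did. The 5 in arid4b-delta cells were Grb2, Ptpn11, Hras and Mapk3, which carry the signal, and the inhibitor Spry1. The 3 in WT endoderm only were the adaptor Frs3 and the immediate early genes Egr1 and Fos. In mesoderm 4 had it in arid4b-delta cells only (Fgf5, Fgf11, Fgf12 and Spry1) and 2 in WT cells only (Mapk3 and Fos), where 5.62% and 3.71% of all genes did. Fgf5, a ligand of the primed epiblast, had a peak of fold 12.1 in arid4b-delta mesoderm and H3K27me3 in WT mesoderm only, with a fold of 3.29.

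H3K27me3 was found in arid4b-delta endoderm only at 2 of the 55, Gab1 and Spred1, and in WT endoderm only at 0. Over all genes the shares were 4.89% and 2.05%. The Gab1 and Spred1 peaks were weak, with folds of 1.82 and 1.85. In mesoderm it was found in arid4b-delta cells only at 9 (Fgf6, Fgf23, Fgfr2, Fgfr4, Fgfrl1, Gab1, Dusp4, Dusp5 and Dusp9) and in WT cells only at 1, Fgf5. Of the 6 receptors and co-receptors, 5 had it in arid4b-delta mesoderm and 2 in WT mesoderm, while 5 had it in arid4b-delta endoderm and in WT endoderm. The share of all genes with H3K27me3 in arid4b-delta mesoderm only is the 7.68% given above, against which 9 of 55 stand. For WT mesoderm only the share is 0.726%, against 1 of 55.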

How the data were processed

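Peak lists were analysed for 12 ChIP libraries, 1 per mark, lineage and genotype. The 4 input samples were not analysed here. The submitters' processing notes name Bowtie2, Picard, MACS2 and build mm10, and versions and settings are not given in the sources used here. H3K4me3 and H3K27ac lists are narrow peaks and H3K27me3 lists broad peaks, and each list is named for a single library. The authors' deposited columns hold a score per peak, a fold enrichment (a ratio over control or local background), −log10 p and −log10 q values, and in narrow lists a summit offset in bp, another unit set by the authors. The score, −log10 p and summit were not used further. Read totals are not part of a peak list, so sequencing depth is unknown and no floor on undetected peaks can be given. The lists held 6150 to 35884 peaks, and their length differs between genotypes, which can change which genes are called.

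Genes came from a RefSeq table of GRCm38.p6, which is mm10. Exon and intron positions were not used. A peak marked a promoter when it overlapped by at least 1 bp the 1000 bp either side of a gene end, and neighbourhoods reached 20 kb. Named genes outside the 10 were those of the 55 whose H3K27ac or H3K27me3 differed between genotypes, at most 5 per direction, and the 4 further H3K27me3 genes were named after their values were seen. The members and lists were chosen with earlier results of these data known. Interval code was tested on simulated peaks. Alternatives were other windows, lists matched in length, stronger or longer peaks, 500 bp covered, 1 end per gene and other neighbourhood sizes. Python 3.11.15, pandas 2.3.3, numpy 2.4.6, scipy 1.17.1 and matplotlib 3.10.9 were used.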

Additional observations from a re-analysis of the deposited data

How the results depend on the processing

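With 1 library per group, no replicate could be left out. No paired analysis was possible because each group holds 1 library. Of 220 alternative values for 36 counts, 177 stayed within 1.5 times the count reported and 43 moved; the cause was not tested. In 23 of the 177 the genes were not the same set: with peaks of at least 500 bp, for example, H3K4me3 in arid4b-delta endoderm only was at Fgf3 and not Fgf10, and H3K27ac in WT endoderm only at Fgfr1 and not Fgf8. Peak lists give no depth, so a missing peak is not shown to be a missing mark. The values below are numbers of the 10 genes, and the alternatives "any covered base beyond the windows" and "without Fgf17 and Spry4" were chosen after seeing the data.

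With the highest-fold 50% of each list, H3K4me3 in endoderm was in WT only at 1, and in mesoderm in arid4b-delta only at 3 and in WT only at 1. H3K27ac was in arid4b-delta only at 2 in endoderm and in WT only at 0 in mesoderm, and H3K27me3 in WT only at 4 in endoderm (Fgf3, Fgf4, Fgf8 and Fgf15). Between lineages, H3K4me3 in arid4b-delta cells was in endoderm only at 1 and in mesoderm only at 1, and in WT cells in endoderm only at 3. H3K27ac was in mesoderm only at 0 in arid4b-delta cells and in endoderm only at 2 in WT cells, and H3K27me3 in arid4b-delta cells in mesoderm only at 5.

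With lists matched in length, H3K27ac in mesoderm was in arid4b-delta only at 1, and within 20 kb in WT only at 2. H3K27me3 was in WT only at 4 in endoderm, the same 4 genes, and, in arid4b-delta cells, in mesoderm only at 5. In arid4b-delta endoderm both marks were found at 0 genes and H3K4me3 without H3K27me3 at 10.

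With peaks of at least 500 bp, H3K4me3 in mesoderm was in arid4b-delta only at 1 and in WT only at 1, and in WT cells in endoderm only at 1 and in mesoderm only at 2. H3K27ac was in arid4b-delta only at 1 in endoderm, in WT only at 0 in mesoderm, and in WT cells in endoderm only at 2. With at least 500 bp covered, H3K4me3 was in mesoderm only at 1 in arid4b-delta cells and 2 in WT cells, and H3K27ac in WT only at 0 in mesoderm and in WT cells in endoderm only at 3.

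With 1 promoter end per gene, H3K27ac was in WT only at 0 in endoderm and 1 in mesoderm, and H3K27me3 in arid4b-delta only at 1 in mesoderm, Fgf10 without Fgf17, and, in arid4b-delta cells, in mesoderm only at 1. Without Fgf17 and Spry4 the mesoderm H3K27me3 count was also 1. With a 500 bp window H3K27ac was in WT only at 0 in endoderm and 1 in mesoderm, and with 2500 bp H3K27me3 was in WT only at 2 in endoderm and in WT cells in endoderm only at 1. For H3K27ac within 20 kb, the endoderm count in WT only was 0 with 50000 bp around the gene, 1 beyond 2500 bp from any gene end and 1 with any covered base beyond the windows, which also gave 1 in arid4b-delta only. Beyond 2500 bp the mesoderm count in arid4b-delta only was 2. Of the calls at single genes, those kept under all 7 alternatives were H3K27ac at Fgf15 in arid4b-delta mesoderm only, H3K27me3 at Fgf10 in arid4b-delta only in both lineages, H3K27me3 at Fgf15 in WT only in endoderm, and in mesoderm only in arid4b-delta cells.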
